A study of Drosophila melanogaster with 8 samples.

Results

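RNA of adult whole flies of Drosophila melanogaster that carried a knockout of anw was compared with RNA of wildtype whole flies by RNA sequencing. The mutant group held 2 libraries and the wildtype group held 2 libraries, out of 8 libraries in the series, the other 4 being from adult muscle. All genes of the whole-fly table were described, and the members of the comparison were chosen by the genotype and tissue given in the labels, not by a measured value. The series' title places anw, named Angel wing, in a class of regulators of alternative splicing. Fly stocks were kept at 25 °C on cornmeal food. Strain, sex, age, number of flies per library and the nature of the knockout allele are not given in the labels, and both mutant libraries carry the same mutant number in their titles. Whether the repeats stand for separate groups of flies is not stated, and the spread between them, on which all p-values rest, may be technical.

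A whole adult fly is a mixture of tissues. Its RNA comes from flight and leg muscle, gut, fat body, epidermis, nervous system, Malpighian tubules, blood cells and the reproductive organs of whichever sexes were collected. Many fly genes are used almost exclusively in a single tissue or at a single stage, such as eggshell genes in ovarian follicle cells, seminal fluid genes in the male accessory gland, trypsins in the midgut, or larval serum proteins in the larval fat body. A higher or lower value of such genes in whole-fly RNA therefore reports on that tissue or stage, but in bulk samples fewer cells of a type and less RNA per cell cannot be told apart.

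Values were FPKM, in which reads are divided by gene length and by a scaled total for the library. The scaled total was 0.935 and 0.984 times the summed gene reads in the mutants, against 1.02 and 1.07 times in the wildtypes. Gene reads summed to 22210197 and 20136878 in the mutants, against 19332056 and 19624501 in the wildtypes. Libraries of a genotype were close to each other, with log2 values that correlated across genes at 0.990 between the mutants and 0.991 between the wildtypes, against 0.944 to 0.954 between genotypes. RNA of muscle, gut, eye, brain, fat body, ovary and testis was present in all 4 libraries, and so were markers of both sexes. No entry could be matched to the symbol anw in the table or in the reference, so RNA of the targeted gene was not used to check the labels.

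Mutant whole flies had more RNA of muscle, mitochondria, adult cuticle, eggshell and larval serum proteins, and less RNA of gut proteases, starch- and sugar-digesting enzymes, antimicrobial peptides and Turandot stress peptides. Of 11419 genes tested, 1135 were higher in mutant than in wildtype flies (9.94%) and 1237 were lower (10.8%), by limma on log2(FPKM + 1) at a Benjamini-Hochberg adjusted p of 0.05. Together these were 20.8% of the genes tested, and for all 2372 genes both mutants lay on the same side of both wildtypes. Such separation was common, since in 34.5% of all genes tested both mutants lay above both wildtypes and in 31.5% below them. Changes were large for a minority: 337 of the higher genes exceeded a difference of 1 on the log2 scale and 73 exceeded 2, while 337 of the lower genes lay under -1 and 65 under -2. The median of all genes tested was 0.02. A test on the recovered reads (limma-voom) called 897 genes higher and 2008 lower, so that 30.9% of calls were higher against 47.8% in the test on FPKM. That test used plain sums of reads in place of the scaled totals behind the FPKM, which differed between the genotypes. The median of all genes moved by -0.12 (log2), to -0.10. Differences below were not recentred on the median, so counts from the test on recovered reads carry this shift. Leaving out wildtype replicate 1 left 1265 calls, and leaving out wildtype replicate 2 left 1293. With the spread shared with the more variable muscle libraries, over 9465 genes, 330 were called higher and 216 lower. The RNA shares of muscle, mitochondria, ovary, gut and testis each differed between genotypes, and their part in the result of any single gene was not tested.

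**Figure D1:**
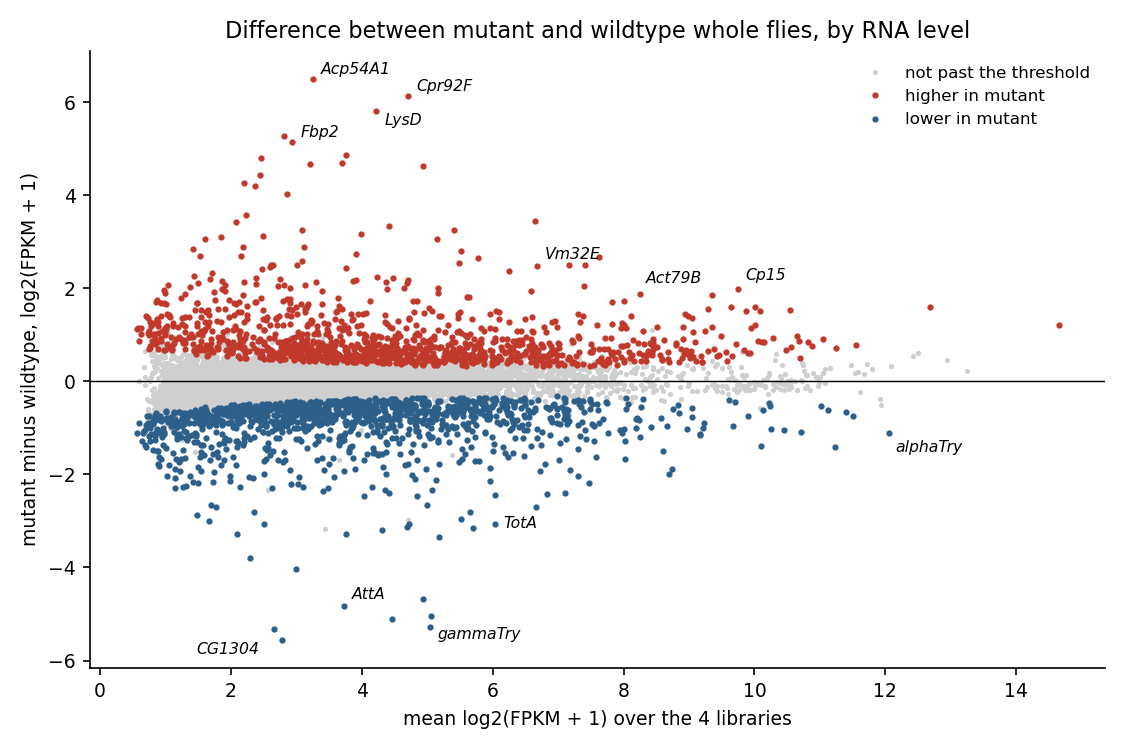
Difference between mutant and wildtype whole flies for each gene tested (y axis, log2(FPKM + 1), mutant minus wildtype) against its mean level over the 4 libraries (x axis, log2(FPKM + 1)). Red points passed the test as higher and blue points as lower in mutant, grey points did not pass. The 1135 higher and 1237 lower genes lie over the whole range of levels, and differences beyond 4 in size belong to few genes.

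The 44 gene lists used below mark tissues, sexes, stages and pathways. For each list the count of members that passed the test is given, to be read against the shares of 9.94% higher and 10.8% lower over all genes.

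**Figure D2:**
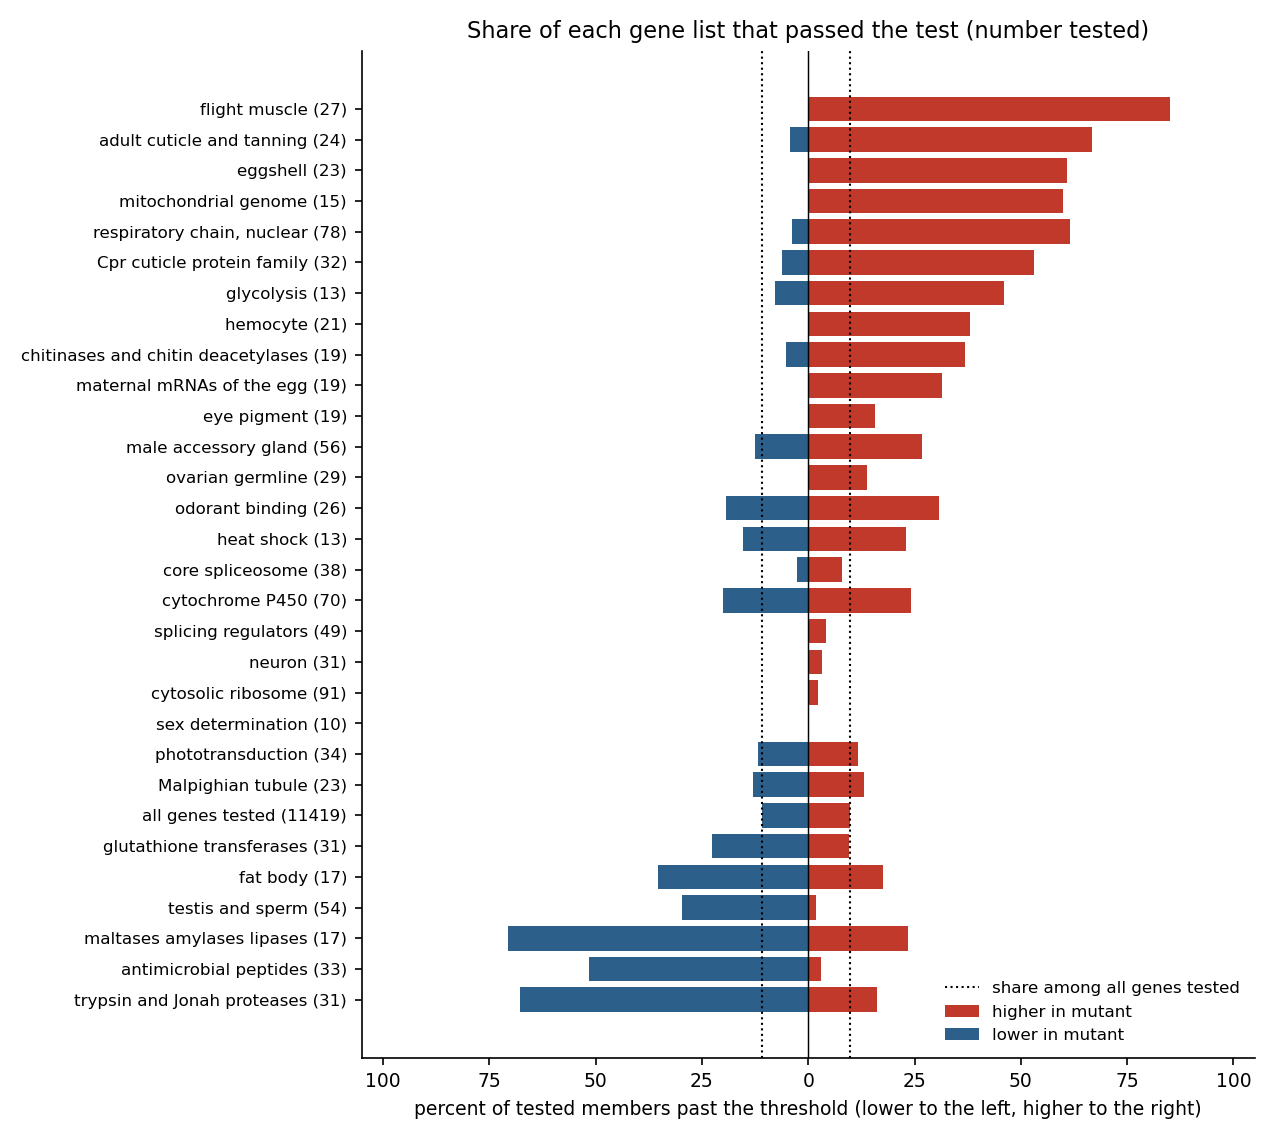
Share of the tested members of each gene list with at least 10 tested members that was higher in mutant flies (red, to the right) or lower (blue, to the left), in percent. Dotted lines mark the 9.94% higher and 10.8% lower among all 11419 genes tested. Flight muscle, adult cuticle, nuclear respiratory chain and eggshell genes stand far to the right, and digestive enzymes and antimicrobial peptides far to the left.

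Larval serum proteins, storage proteins that the larval fat body makes before metamorphosis, were higher in mutant flies. All 6 tested members rose, with a median difference of 2.64 (log2). Fbp1, the fat body receptor for these storage proteins (3L, 14094589 to 14098053), had 30.95 and 25.4 FPKM in the mutants, against 0.0146 and 0.0689 FPKM in the wildtypes. The wildtype values rest on 1 and 5 reads and the mutant values on 2227 and 1743. Fbp2, a fat body protein made late in larval life, had 48.7 and 40.9 FPKM in the mutants, against 0.472 and 0.133 FPKM in the wildtypes, a 148-fold difference. The hexamerins Lsp2, Lsp1beta, Lsp1alpha and Lsp1gamma store amino acids for the building of the adult. Lsp2 had 6.24 and 9.64 FPKM in the mutants, against 0.0613 and 0.0385 FPKM in the wildtypes. Lsp1gamma was the member with the most wildtype RNA, at 21.1 and 23 FPKM in the mutants, against 5.99 and 5.31 FPKM in the wildtypes. All 6 were also higher when any 1 library was left out. Their summed share of reads was 0.025% and 0.0245% in the mutants, against 0.00215% and 0.0019% in the wildtypes. The salivary glue and gland genes of the larva were near 0: none of 22 reached the level for testing, and their summed share of reads was at most 2.55e-05%.

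Genes of the adult cuticle, the chitin and protein layer that the epidermis secretes and then hardens and darkens around eclosion, were higher in mutant flies. Of 24 tested genes of adult cuticle and tanning, 16 rose and 1 fell, with a median of 1.02, and their share of reads was 0.178% and 0.201% in the mutants, against 0.0751% and 0.0611% in the wildtypes. Genes could reach the level for testing through 1 genotype alone, which bears on this median. Without the filter on low values the median of the list was 0.72, with 15 higher and 2 lower. Cpr100A, a chitin-binding cuticle protein, had 132 and 142 FPKM in the mutants, against 23.4 and 18.6 FPKM in the wildtypes (difference 2.66 on the log2 scale, SE 0.13, with 2 libraries a group, limma adjusted p = 3.49e-05). Acp1, an adult cuticle protein despite a symbol shared in form with seminal genes, had 376 and 433 FPKM in the mutants, against 88.9 and 56.4 FPKM in the wildtypes. Among the tanning enzymes, the tyrosine hydroxylase gene ple, which starts catecholamine synthesis, had 25.4 and 28.2 FPKM in the mutants, against 9.49 and 8.65 FPKM in the wildtypes, a 2.96-fold difference. Ebony (e) and black (b), which supply and attach beta-alanine in pigmentation, differed by 0.76 and 0.91. The next enzyme of the pathway, Ddc, had 22.1 and 18.2 FPKM in the mutants, against 23.05 and 22.5 FPKM in the wildtypes and did not pass (-0.17, limma adjusted p = 0.345).

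The wider Cpr family of chitin-binding cuticle proteins showed the same direction in most members that were expressed. Of 71 family members found, 32 reached the level for testing, 17 of these rose and 2 fell, with a median of 0.98. A member could reach that level through 1 genotype alone, which bears on this median. Without the filter the median of the family was 0.17, with 19 higher and 3 lower. Cpr92F (3R, 20669571 to 20672821) had the second largest rise of all genes, with 221 and 216 FPKM in the mutants, against 2.34 and 1.93 FPKM in the wildtypes, a 102-fold difference (limma adjusted p = 8.34e-07). The lower members were Cpr65Ea, with 0.0892 and 0 FPKM in the mutants, against 1.13 and 3.01 FPKM in the wildtypes, and Cpr62Ba, with 1.83 and 1.14 FPKM in the mutants, against 4.01 and 5.60 FPKM in the wildtypes. Cpr65Ea, which is also the lower member among adult cuticle genes, did not pass without wildtype replicate 2. The 2 cuticle lists share members. Vajk2 and Vajk3, small cuticle proteins that lie within the gene Ance-3, were 10.2-fold and 8.97-fold higher. Vajk2 had 124 and 136 FPKM in the mutants, against 13.3 and 12.2 FPKM in the wildtypes. The third tested member, Vajk4, was lower, with 0.904 and 1.21 FPKM in the mutants, against 2.10 and 2.41 FPKM in the wildtypes, and did not pass without mutant replicate 1 or with either wildtype left out.

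Of 19 tested chitinases and chitin deacetylases, enzymes that remodel chitin, 7 rose and 1 fell, with a median of 0.22. Cht5, a chitinase of moulting, had 25.7 and 19.7 FPKM in the mutants, against 2.005 and 2.36 FPKM in the wildtypes, a 10.4-fold difference. The deacetylases vermiform (verm) and serpentine (serp), known from the tracheal wall, were 3.88-fold and 3.44-fold higher. The single member that fell was Cht4, with 4.84 and 5.34 FPKM in the mutants, against 14.6 and 14.3 FPKM in the wildtypes.

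Osiris genes, a cluster on 3R active in epidermis while cuticle is laid down, were low in all libraries, and only 8 of 25 reached the level for testing. Of these 6 fell, with a median of -1.58. A gene could reach that level through 1 genotype alone, which bears on the sign of this median. Without the filter the median of the family was -0.16, with 5 lower calls. Osi15 had 0.0782 and 1.07 FPKM in the mutants, against 4.73 and 4.69 FPKM in the wildtypes. Osi7 had 0.0179 and 2.74 FPKM in the mutants, against 5.31 and 9.26 FPKM in the wildtypes, so mutant replicate 1 held far less than mutant replicate 2, and it did not pass without mutant replicate 1 or wildtype replicate 2. Without mutant replicate 1 the median of the 8 genes was -1.10, and without mutant replicate 2 it was -1.81. Among the Tweedle cuticle proteins of the larva, 1 of 5 tested members, TwdlF, fell, with 0 and 0.286 FPKM in the mutants, against 5.54 and 3.48 FPKM in the wildtypes. TwdlF reached the level for testing through the wildtypes alone, and without the filter 1 Tweedle gene was higher and 1 lower. Larval cuticle genes were almost silent, with 2 of 15 tested and 1 higher, and of 5 tested pupal cuticle genes 1 was higher. These higher genes, Lcp65Ac and Ccp84Aa, reached the level for testing through the mutants alone, which bears on these counts. Without the filter each of the larval and pupal lists also had 1 higher gene. Of 8 tested genes of early embryonic patterning 1 rose and 2 fell, and each of these calls was lost without mutant replicate 1.

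Muscle genes were higher as a block. Of 27 tested genes of the sarcomere, its regulators and flight muscle metabolism, 23 rose and 0 fell, with a median of 1.03, and their summed share of reads was 3.08% and 3.08% in the mutants, against 1.72% and 1.63% in the wildtypes. The actin gene Act79B, used in tubular muscles of legs and thorax (3L, 21985210 to 21987190), had 1279 and 1201 FPKM in the mutants, against 339 and 339.9 FPKM in the wildtypes, a 3.65-fold difference (1.86 ± 0.11, limma adjusted p = 6.89e-05). The flight muscle actin Act88F had 1482 and 1448 FPKM in the mutants, against 739 and 598 FPKM in the wildtypes. Mlc2, the myosin regulatory light chain, had 2821 and 2300.1 FPKM in the mutants, against 955 and 809.8 FPKM in the wildtypes. Flightin (fln), a thick filament protein of flight muscle, had 15.7 and 10.5 FPKM in the mutants, against 4.13 and 3.05 FPKM in the wildtypes. The myosin heavy chain Mhc rose less, with 409 and 429 FPKM in the mutants, against 292 and 274 FPKM in the wildtypes, a difference of 0.56.

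The 4 muscle genes that did not pass were Zasp66, sls, bt and TpnC73F. The last 3 had differences of 0.10, -0.19 and -0.24. The genes sls and bt encode the giant titin-like proteins of the fly, and bt had 15.5 and 26.9 FPKM in the mutants, against 24.5 and 22.7 FPKM in the wildtypes, so that mutant replicate 1 lay below both wildtypes and mutant replicate 2 above them. Long and short genes also differed between libraries of 1 genotype: the Spearman correlation of the difference with gene length across 11419 genes was 0.203 for mutant replicate 2 minus 1 and -0.192 for wildtype replicate 2 minus 1, against -0.006 for mutant minus wildtype. Genes are not independent replicates, and the part of this trend in the values of long genes was not tested. When any 1 library was left out, between 18 and 23 muscle genes were higher.

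Energy metabolism genes were higher as well. Of 78 tested nuclear genes of the respiratory chain, which build the 5 complexes of oxidative phosphorylation, 48 rose and 3 fell, with a median of 0.44 and a share of reads of 3.76% and 3.45% in the mutants, against 2.57% and 2.58% in the wildtypes. UQCR-11, a small subunit of complex III, had 138 and 112 FPKM in the mutants, against 59.1 and 57.7 FPKM in the wildtypes. The complex I subunit ND-30 had 777 and 553 FPKM in the mutants, against 339 and 355 FPKM in the wildtypes. The 3 that fell are ND-20L, SdhBL and SdhCL, paralogs of subunits rather than the main copies, with differences of -0.90, -0.81 and -0.58. SdhBL had 4.79 and 6.45 FPKM in the mutants, against 9.28 and 11.9 FPKM in the wildtypes. With wildtype replicate 1 or wildtype replicate 2 left out, 18 nuclear respiratory genes were higher in place of 48, and without mutant replicate 1 the count was 35. Such fits leave 1 library in a group, so a lost call does not show that it rested on the library left out. SdhCL had 5.68 and 5.39 FPKM in the mutants, against 8.76 and 8.79 FPKM in the wildtypes. ND-20L had 3.93 and 2.57 FPKM in the mutants, against 5.30 and 8.71 FPKM in the wildtypes.

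Of 15 tested genes on the list of the mitochondrial genome 9 rose and 0 fell, with a median of 0.86. Their summed share of reads was 11.1% and 9.29% in the mutants, against 6.89% and 5.4% in the wildtypes. Over all 22 tested genes of the mitochondrion, listed or not, 10 rose and 1 fell, with a median of 0.66. The large ribosomal RNA lrRNA alone took 5.40% and 4.53% of reads in the mutants, against 2.67% and 2.05% in the wildtypes. The messenger RNA of ATP6, a subunit of ATP synthase, had 13550.2 and 9554 FPKM in the mutants, against 4360.2 and 3251 FPKM in the wildtypes. COX1, the catalytic subunit of cytochrome oxidase, had 11348 and 9691 FPKM in the mutants, against 10208 and 8016 FPKM in the wildtypes, and did not pass (0.21, limma adjusted p = 0.464). The 9 mitochondrial calls became 4 without mutant replicate 1, 3 without wildtype replicate 2, and 2 both without a filter on low values and with the spread shared with muscle. Of 13 tested glycolytic genes 6 rose and 1 fell, with a median of 0.35. Phosphofructokinase (Pfk), the committed step, had 118 and 110.3 FPKM in the mutants, against 63.5 and 66.7 FPKM in the wildtypes. Lactate dehydrogenase (Ldh) fell, with 17.2 and 14.8 FPKM in the mutants, against 24.1 and 22.2 FPKM in the wildtypes. With either wildtype left out the count of higher glycolytic genes was 2, and without mutant replicate 2 or either wildtype Ldh did not pass.

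**Figure D3:**
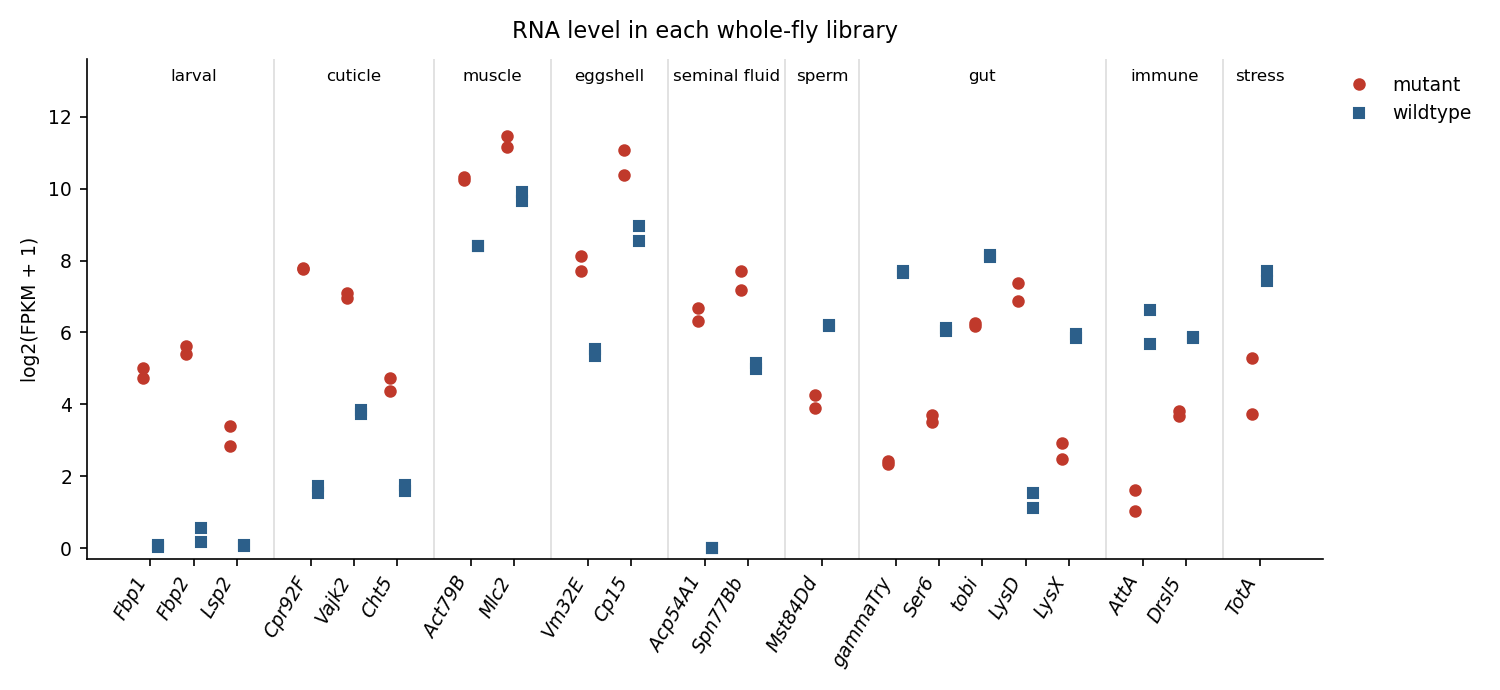
Level of 21 genes in each whole-fly library (y axis, log2(FPKM + 1)), mutant as red circles left of wildtype as blue squares, grouped by the tissue or stage the genes mark. For each gene shown both mutants lie on 1 side of both wildtypes. Acp54A1 had no read in either wildtype.

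Among genes of female reproduction the eggshell stood out. Of 23 tested genes for chorion and vitelline membrane, the layers that follicle cells lay around the egg, 14 rose and 0 fell, with a median of 1.11. Their share of reads was 1.19% and 0.95% in the mutants, against 0.585% and 0.635% in the wildtypes. Vm32E, a vitelline membrane protein, had 278 and 209.6 FPKM in the mutants, against 39.6 and 45.4 FPKM in the wildtypes, a 5.73-fold difference. The late chorion gene Cp15 had 2163 and 1332 FPKM in the mutants, against 498 and 373 FPKM in the wildtypes. The vitelline membrane protein gene Vm26Aa had 1687 and 1452 FPKM in the mutants, against 637 and 712 FPKM in the wildtypes. Major chorion genes Cp36 and Cp38 did not pass, at differences of 0.46 and 0.59. Cp36 had 1878 and 1195 FPKM in the mutants, against 964 and 1221 FPKM in the wildtypes, so that its groups overlapped.

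Of 29 tested ovarian germline genes 4 rose and 0 fell (otu, vas, exu and osk), with a median of 0.22. The RNA helicase gene vas had 31.7 and 29.8 FPKM in the mutants, against 19.99 and 21.1 FPKM in the wildtypes. Of 19 tested maternal RNAs of the egg 6 rose, with a median of 0.42. The genes vas and exu did not pass with either wildtype left out. The cell cycle regulator cort, needed for female meiosis, had 26.5 and 17.7 FPKM in the mutants, against 7.74 and 8.59 FPKM in the wildtypes. These 2 counts became 1 each without wildtype replicate 1 and also without wildtype replicate 2, and 6 and 11 without mutant replicate 2. Without mutant replicate 1 the germline count was 2. The yolk protein gene Yp2 had 4058 and 3791 FPKM in the mutants, against 2331 and 2255 FPKM in the wildtypes, a 1.71-fold difference, while Yp1 and Yp3 did not pass, at 0.16 and 0.27, and Yp2 did not pass with either wildtype left out. The gene fit, a fat body product known as a female-enriched satiety signal, had 22.7 and 26.04 FPKM in the mutants, against 0.381 and 0 FPKM in the wildtypes. In the spermatheca, the sperm store of the female, 2 of 4 tested genes rose, among them the protease gene Send2 with 12.5 and 15.7 FPKM in the mutants, against 2.16 and 3.39 FPKM in the wildtypes, and the count was 1 without mutant replicate 1 or wildtype replicate 2.

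Among male genes the accessory gland list split. Of 56 tested seminal fluid genes 15 rose and 7 fell, with a median of 0.14, and their summed share of reads was 0.307% and 0.356% in the mutants, against 0.311% and 0.338% in the wildtypes, so that the groups overlapped. Acp54A1 had the largest rise of all genes, with 78.9 and 102 FPKM in the mutants, against 0 and 0 FPKM in the wildtypes, and was at least 187-fold higher against a floor of 3 reads per wildtype library. Sfp93F had 33.7 and 54 FPKM in the mutants, against 0 and 0.29 FPKM in the wildtypes. The serpin gene Spn77Bb had 144 and 207 FPKM in the mutants, against 30.4 and 34.7 FPKM in the wildtypes. The member with the most RNA, Sfp87B, did not pass, with 992 and 906 FPKM in the mutants, against 845 and 935 FPKM in the wildtypes. The next in level split, since Sfp60F rose by a difference of 0.58 and Mst57Da had -0.58 and fell. The sex peptide gene SP, whose product changes female behaviour after mating, had 26.6 and 35.98 FPKM in the mutants, against 28.4 and 44.3 FPKM in the wildtypes, with overlapping groups. The largest fall was in Acp32CD, with 64.96 and 71.2 FPKM in the mutants, against 109 and 118 FPKM in the wildtypes. The counts of 15 and 7 became 10 and 3 without wildtype replicate 1, 13 and 1 without wildtype replicate 2, and 15 and 4 without mutant replicate 1. The list of the ejaculatory duct and bulb had 3 of 7 tested genes higher, among them Dup99B, a relative of the sex peptide gene, with 26.1 and 36.8 FPKM in the mutants, against 5.88 and 6.31 FPKM in the wildtypes.

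Testis genes pointed down. Of 54 tested genes of spermatogenesis and sperm 1 rose and 16 fell, with a median of -0.31 and a share of reads of 0.211% and 0.223% in the mutants, against 0.286% and 0.34% in the wildtypes. The largest falls were in the Mst84D cluster of sperm tail proteins. Mst84Dd had 13.9 and 18 FPKM in the mutants, against 71.9 and 72.5 FPKM in the wildtypes, and Mst84Dc had 28.9 and 24.6 FPKM in the mutants, against 76.3 and 84.8 FPKM in the wildtypes. The neighbouring Mst84Db had 256 and 192 FPKM in the mutants, against 236 and 277 FPKM in the wildtypes and did not pass. Among abundant testis genes, the sperm proteins S-Lap1 and loopin-1 fell, by differences of -0.41 and -0.56. CG10252 (-0.06) and betaTub85D (-0.22), the tubulin of sperm, did not pass. The protamines ProtA and ProtB, which pack sperm DNA, had differences of -0.25 and -0.22 and did not pass. Without wildtype replicate 2 the 16 calls became 4, and without mutant replicate 1 or wildtype replicate 1 they became 11. Of 12 Y-linked fertility genes 3 were tested and 0 passed by limma, with 1 at an unadjusted p under 0.05, while 1 was lower in the test on recovered reads and 1 without mutant replicate 1. The gene tomb, a testis meiotic arrest gene, rose, with 3.57 and 2.17 FPKM in the mutants, against 0.303 and 0.685 FPKM in the wildtypes.

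**Figure D4:**
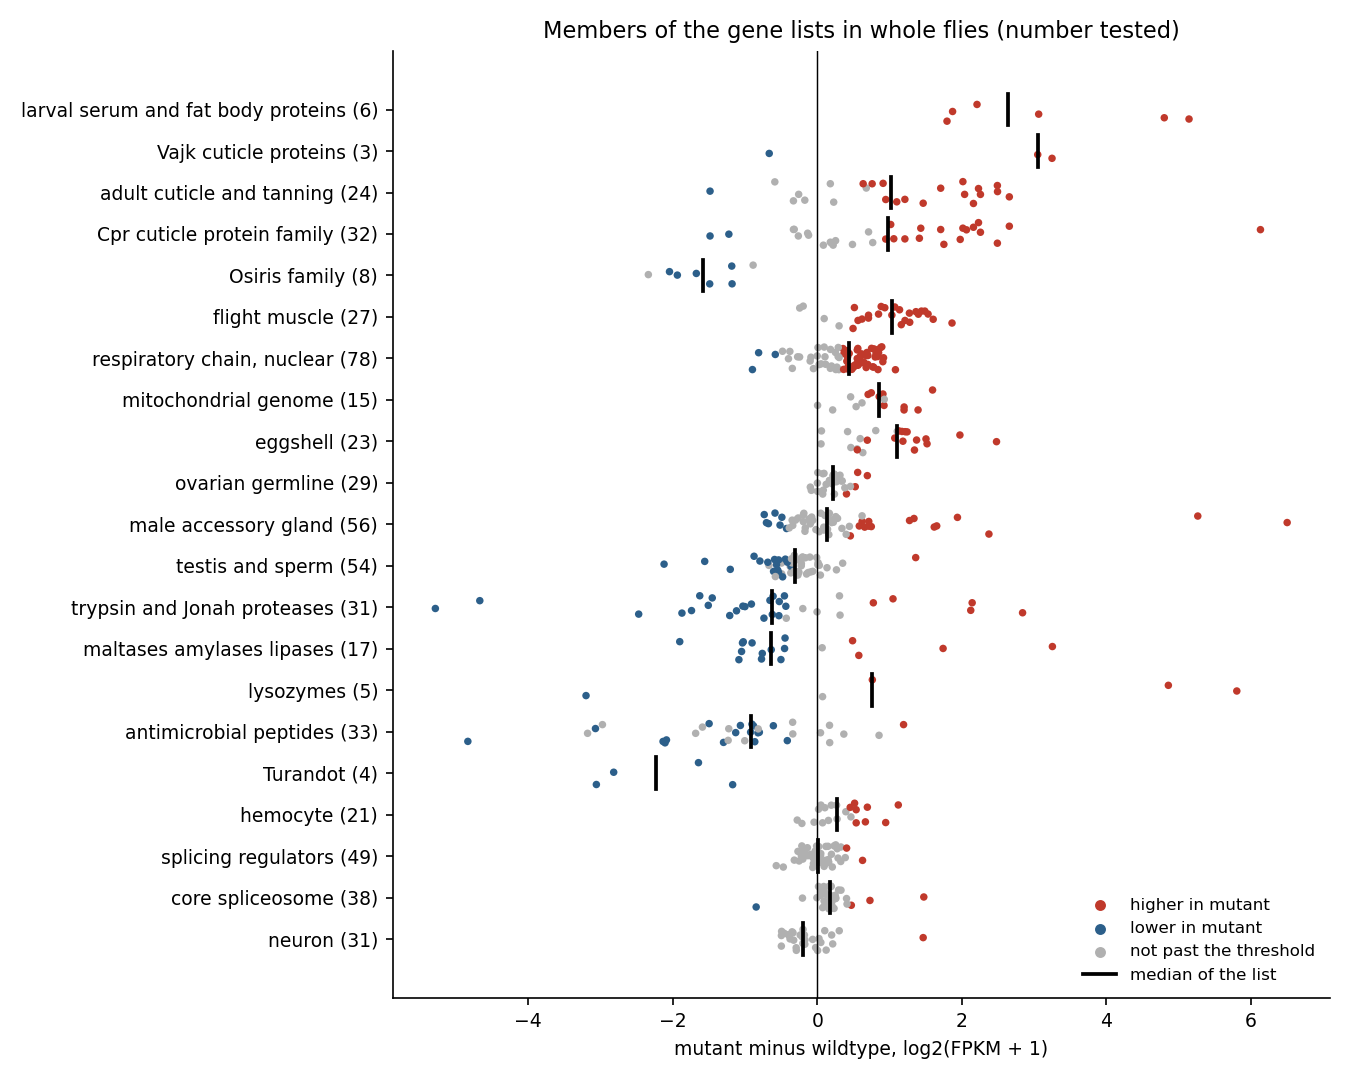
Difference between mutant and wildtype whole flies (x axis, log2(FPKM + 1), mutant minus wildtype) of each tested member of 21 gene lists, with the number tested in brackets. Red and blue points passed the test as higher or lower in mutant, grey points did not, and black bars are medians. Larval serum proteins, flight muscle and eggshell genes lie to the right of 0, Turandot and most trypsin genes to the left, and seminal fluid genes and lysozymes on both sides.

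Digestive enzymes of the midgut were lower in mutant flies. Of 31 tested trypsins and Jonah proteases 21 fell and 5 rose, with a median of -0.62 and a share of reads of 1.35% and 1.47% in the mutants, against 2.54% and 2.49% in the wildtypes. The most abundant, alphaTry, had 2839 and 2932 FPKM in the mutants, against 6485 and 6042 FPKM in the wildtypes, a difference of -1.12. Jon65Aiv had 2194 and 2323 FPKM in the mutants, against 3862 and 3671 FPKM in the wildtypes. The genes gammaTry (2R, 11349061 to 11349870), deltaTry, CG30025 and CG30031 of the trypsin cluster fell most. The gene gammaTry had 4.40 and 4.11 FPKM in the mutants, against 206 and 201 FPKM in the wildtypes (-5.28 ± 0.10, limma adjusted p = 8.34e-07), and deltaTry had 5.29 and 4.80 FPKM in the mutants, against 146 and 159.9 FPKM in the wildtypes. Copies of this cluster are near-identical, so the authors' counting could have split reads among them and the value of each copy is uncertain. The neighbouring betaTry and epsilonTry differed by -0.65 and 0.31, and epsilonTry did not pass. The count of 21 became 13 without wildtype replicate 1 and also without wildtype replicate 2.

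A few proteases ran against the rest. Ser12 had 7.12 and 5.32 FPKM in the mutants, against 0 and 0 FPKM in the wildtypes and was at least 35.6-fold higher against the floor of 3 reads per library. Jon74E had 8.80 and 8.44 FPKM in the mutants, against 0.953 and 1.43 FPKM in the wildtypes, and Jon66Ci had 23.5 and 16.1 FPKM in the mutants, against 3.02 and 4.50 FPKM in the wildtypes. Ser6 ran with the majority, with 12.03 and 10.3 FPKM in the mutants, against 64.3 and 68.3 FPKM in the wildtypes. Among 17 tested maltases, amylases and lipases 12 fell and 4 rose, with a median of -0.64. The amylase gene Amy-p, which splits starch, had 1070.0 and 883 FPKM in the mutants, against 2024 and 1994 FPKM in the wildtypes, with reads that may be shared with its near-identical copy Amy-d. The glucosidase gene tobi, a target of insulin and glucagon-like signals, had 76.3 and 71.5 FPKM in the mutants, against 285 and 272 FPKM in the wildtypes. Against this, the maltase gene Mal-B1 had 25.4 and 24.96 FPKM in the mutants, against 1.93 and 1.58 FPKM in the wildtypes, a 14.4-fold rise. With either wildtype left out 2 of the 4 higher genes passed. The share of reads of these enzymes was 0.504% and 0.47% in the mutants, against 0.967% and 0.975% in the wildtypes.

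Lysozymes, which cut bacterial cell walls and serve digestion in the fly gut, split by member. Of 5 tested genes 3 rose and 1 fell. LysD (3L, 1210717 to 1211196) had 165 and 116 FPKM in the mutants, against 1.16 and 1.89 FPKM in the wildtypes, and LysB had 80.95 and 63.5 FPKM in the mutants, against 3.07 and 0.547 FPKM in the wildtypes. LysX moved the other way, with 4.61 and 6.62 FPKM in the mutants, against 56.8 and 61.4 FPKM in the wildtypes. LysE differed by 0.76, and LysP, a salivary gland lysozyme, by 0.07 without passing. LysB, LysD and LysE are near-identical, so their single values are uncertain, and LysD overlaps the annotated genes mwh and LysC.

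Peptides of the immune response were lower. Of 33 tested antimicrobial and Bomanin peptide genes 17 fell and 1 rose, with a median of -0.92. Drosomycin (Drs), the antifungal target of the Toll pathway, had 133 and 152 FPKM in the mutants, against 272 and 263 FPKM in the wildtypes. The Bomanin BomS2, also a Toll target, had 422 and 353 FPKM in the mutants, against 847 and 844 FPKM in the wildtypes. Relatives of drosomycin fell further: Drsl4 had 32.2 and 25.5 FPKM in the mutants, against 122 and 136 FPKM in the wildtypes, and Drsl5 had 11.9 and 13.2 FPKM in the mutants, against 56.5 and 57.96 FPKM in the wildtypes. AttA, an attacin against Gram-negative bacteria, had 1.04 and 2.04 FPKM in the mutants, against 50.1 and 97.6 FPKM in the wildtypes, with a copy AttB that did not pass. The peptide that rose was BomBc3, with 22.1 and 21.8 FPKM in the mutants, against 10.2 and 7.998 FPKM in the wildtypes.

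Wildtype replicate 2 stood apart for diptericin and drosocin genes, targets of the Imd pathway. DptA had 9.03 and 7.63 FPKM in the mutants, against 17.1 and 294 FPKM in the wildtypes, Dro had 4.92 and 1.20 FPKM in the mutants, against 6.72 and 137 FPKM in the wildtypes, and DptB had 21.3 and 24.7 FPKM in the mutants, against 20.98 and 236 FPKM in the wildtypes. In these genes wildtype replicate 1 was far below wildtype replicate 2 and none passed the test. The metchnikowin gene Mtk had 6.65 and 5.65 FPKM in the mutants, against 3.59 and 59.5 FPKM in the wildtypes, also highest in wildtype replicate 2. The summed share of reads of the whole list was 0.0728% and 0.0738% in the mutants, against 0.14% and 0.21% in the wildtypes. The 17 lower calls became 15 without wildtype replicate 2 and 24 without wildtype replicate 1.

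Turandot genes encode secreted peptides that the fat body makes under stress and infection. All 4 tested members fell, with a median of -2.23. TotA had 12.4 and 37.8 FPKM in the mutants, against 209 and 170.4 FPKM in the wildtypes, and TotC had 10.1 and 31.1 FPKM in the mutants, against 139.8 and 125 FPKM in the wildtypes. TotX had 3.92 and 7.96 FPKM in the mutants, against 22.04 and 17.7 FPKM in the wildtypes, and TotM differed by -1.17. For all 4 genes the mutants lay below both wildtypes, although TotA and TotC were higher in mutant replicate 2 than in mutant replicate 1. All 4 were also lower when any 1 library was left out. Of 13 tested heat shock genes 3 rose and 2 fell. The small heat shock genes Hsp23, Hsp26 and Hsp27 were the 3 that rose, and Hsp26, which the ovary also makes, had 494 and 306 FPKM in the mutants, against 163 and 189 FPKM in the wildtypes. The co-chaperone gene stv was lower, with 19.2 and 21.6 FPKM in the mutants, against 31.4 and 28.2 FPKM in the wildtypes. With either wildtype left out neither lower call remained, and with either mutant left out 1 did.

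Blood cell genes were modestly higher. Of 21 tested hemocyte genes 8 rose and 0 fell, with a median of 0.27 and a share of reads of 0.255% and 0.284% in the mutants, against 0.236% and 0.221% in the wildtypes. NimB1 and NimB4, secreted relatives of phagocytosis receptors, had differences of 1.12 and 0.95. The count of 8 became 4 without wildtype replicate 1 and 2 without wildtype replicate 2. Of 17 tested adult fat body genes, with roles in storage and release of nutrients, 3 rose and 6 fell, with a median of -0.33. Fatty acid synthase FASN1 had 95.4 and 133 FPKM in the mutants, against 217 and 217 FPKM in the wildtypes, and Tps1, which makes the blood sugar trehalose, had 284 and 294 FPKM in the mutants, against 576 and 553 FPKM in the wildtypes. Glycogen synthase (Glys) ran the other way, with 158 and 142 FPKM in the mutants, against 94.8 and 92.1 FPKM in the wildtypes. With either wildtype left out 1 fat body gene was higher. The 6 lower fat body calls became 3 without mutant replicate 1, 2 without wildtype replicate 1 and 4 without wildtype replicate 2.

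Of 23 tested genes of the Malpighian tubule, the excretory organ, 3 rose and 3 fell, or 13.04% each way, close to the shares over all genes, with a median of 0.03. Urate oxidase (Uro), which degrades uric acid, had 18.3 and 19.6 FPKM in the mutants, against 45.6 and 36.99 FPKM in the wildtypes. The metallothionein gene MtnC, which binds metal ions, had 13.5 and 17.9 FPKM in the mutants, against 1.13 and 0.712 FPKM in the wildtypes.

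Of 70 tested cytochrome P450 genes, enzymes of detoxification and hormone metabolism, 17 rose and 14 fell, more in both directions than the shares of all genes, with a median of -0.02. Cyp6a8 and Cyp6a2 are members of 1 subfamily that foreign chemicals induce. Cyp6a8 had 125 and 116 FPKM in the mutants, against 17.3 and 15.6 FPKM in the wildtypes, and Cyp6a2 had 34.7 and 42.8 FPKM in the mutants, against 252 and 260.3 FPKM in the wildtypes. Cyp6a17, known for its part in temperature preference, had 8.87 and 10.4 FPKM in the mutants, against 40.1 and 34.2 FPKM in the wildtypes. The counts became 8 and 11 without wildtype replicate 2 and 11 and 7 without wildtype replicate 1. Of 31 tested glutathione transferases 3 rose and 7 fell. GstS1, a form abundant in flight muscle, rose to 455 and 478 FPKM in the mutants, against 146 and 135 FPKM in the wildtypes. GstE5 fell, with 10.4 and 9.49 FPKM in the mutants, against 33.1 and 30.9 FPKM in the wildtypes. Without mutant replicate 2, 5 transferases were higher.

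Few neuronal genes passed the test. Of 31 tested genes of neurotransmission and excitability 1 passed, the gene ple named above, and the median was -0.20. The synaptic vesicle gene nSyb had 17.1 and 20.9 FPKM in the mutants, against 24.7 and 22.2 FPKM in the wildtypes, and the neuronal RNA-binding gene elav had 1.20 and 1.53 FPKM in the mutants, against 1.98 and 1.37 FPKM in the wildtypes, with overlapping groups for elav. The test on recovered reads, with its shift of the median, called 13 of the 31 lower. Of 34 tested phototransduction genes 4 rose and 4 fell. The ocellar opsin Rh2 had 14.8 and 13.8 FPKM in the mutants, against 23.2 and 22.4 FPKM in the wildtypes, and Arr2, the arrestin that stops the light signal, had 448 and 421 FPKM in the mutants, against 598 and 693 FPKM in the wildtypes. The scavenger receptor ninaD, which takes up carotenoids for visual pigment, had 39.4 and 36.4 FPKM in the mutants, against 4.56 and 5.07 FPKM in the wildtypes, a 7.87-fold rise. With either wildtype left out these counts were 2 higher and 1 lower, and without mutant replicate 1 they were 2 and 4. Rh2 did not pass without wildtype replicate 1. Of 19 tested eye pigment genes 3 rose, all of them enzymes or transporters: se had 25.2 and 20 FPKM in the mutants, against 7.12 and 8.16 FPKM in the wildtypes, Pu had 57.7 and 51.7 FPKM in the mutants, against 26.9 and 24.8 FPKM in the wildtypes, and kar differed by 0.51 but did not pass with either wildtype left out.

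Odorant binding proteins, carriers of odours and other small molecules that also serve outside the antenna, had more calls than the background. Of 26 tested genes 8 rose and 5 fell. Obp99b, known from antenna and male fat body, had 155 and 147 FPKM in the mutants, against 4.35 and 6.03 FPKM in the wildtypes, a 29.2-fold difference. Obp49a had 9.45 and 8.22 FPKM in the mutants, against 27.6 and 28.4 FPKM in the wildtypes. Without wildtype replicate 2 the lower count was 3. The summed share of reads was 0.22% and 0.185% in the mutants, against 0.113% and 0.121% in the wildtypes.

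Genes of the splicing machinery, the field in which the series' title places anw, had few calls. Of 49 tested splicing regulators 2 rose and 0 fell, with a median of 0.01, and their share of reads was 0.582% and 0.662% in the mutants, against 0.678% and 0.656% in the wildtypes. These were x16, an SR protein, with 57.8 and 44.4 FPKM in the mutants, against 29.1 and 36.2 FPKM in the wildtypes, and the kinase gene Doa, which acts on SR proteins, with 15.4 and 17.01 FPKM in the mutants, against 12 and 11.9 FPKM in the wildtypes. Neither passed without mutant replicate 1 or without wildtype replicate 1. Of 38 tested core spliceosome genes 3 rose and 1 fell, with a median of 0.17. LSm7, of the ring on U6 RNA, had 64.6 and 39.2 FPKM in the mutants, against 17.4 and 17.5 FPKM in the wildtypes, and Sf3b3, of the U2 particle, had 18.2 and 19.6 FPKM in the mutants, against 35.5 and 33.9 FPKM in the wildtypes. Sf3b3 contains 10 annotated overlapping genes, mostly small nucleolar RNAs, so its reads may not all be its own. The same holds for LSm7, which overlaps ChLD3, and for x16, which overlaps nop5, CG32829 and a small nucleolar RNA. With the replicate number as a block 1 regulator was higher and 2 were lower, and in the test on recovered reads 1 was higher and 4 were lower. Counts in both lists also changed when 1 library was left out, but such fits leave 1 library in a group. The table gives total RNA per gene, so splice forms were not measured. Of 10 tested sex determination genes and 7 dosage compensation genes 0 passed by limma, with 1 and 3 at an unadjusted p under 0.05. In the test on recovered reads 1 and 2 of them were lower. Without mutant replicate 2, 1 dosage compensation gene was higher and 1 lower, and with a minimum of 5 FPKM 1 was higher. The dosage compensation RNA lncRNA:roX1, which male cells make, had 15.6 and 21.2 FPKM in the mutants, against 28.4 and 23.8 FPKM in the wildtypes (-0.49, limma adjusted p = 0.0727).

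Few cytosolic ribosomal protein genes passed. Of 91 tested 2 rose and 0 fell, with a median of -0.03, and their share of reads was 10.4% and 9.91% in the mutants, against 10.5% and 10.9% in the wildtypes. The higher genes were RpS21 and RpS5b, a germline-enriched paralog, with 902 and 688 FPKM in the mutants, against 475 and 525 FPKM in the wildtypes for RpS5b. Without mutant replicate 2 there were 11 higher genes and 1 lower, with either wildtype left out 0, and quantile scaling gave 0 higher and 4 lower.

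Some of the largest changes were in genes with no list. CG1304, a gene of the X chromosome (20964527 to 20965419), had 0 and 0 FPKM in the mutants, against 43.6 and 48.6 FPKM in the wildtypes, which was at least 278-fold lower in the mutants against a floor of 3 reads per library. CG43090, also on the X chromosome (6199216 to 6199891), had 0 and 0 FPKM in the mutants, against 41.6 and 36.4 FPKM in the wildtypes, at least 164-fold lower. The cluster gene CG30025 had 1.90 and 3.80 FPKM in the mutants, against 142 and 114 FPKM in the wildtypes, and CG30031 had 4.69 and 4.85 FPKM in the mutants, against 227 and 158 FPKM in the wildtypes. Further large falls were in CG7298, with 0.946 and 0.992 FPKM in the mutants, against 29.2 and 33.2 FPKM in the wildtypes, and in Srg3, with 11.5 and 9.42 FPKM in the mutants, against 103 and 128 FPKM in the wildtypes. Among the rises, dyw, a gene linked to daytime sleep that overlaps the clock gene per on the X chromosome, had 73.4 and 56.9 FPKM in the mutants, against 1.90 and 1.23 FPKM in the wildtypes, and CG43061 had 38.5 and 53.8 FPKM in the mutants, against 0.154 and 1.89 FPKM in the wildtypes. CG17298, which overlaps SIFaR, had 21.3 and 17.03 FPKM in the mutants, against 0.102 and 0 FPKM in the wildtypes. Whether the counting used strand is not given, so reads of overlapping genes cannot be told apart. Over all entries, 13 had at least 10 reads in both mutants and 0 in both wildtypes, and 15 had the reverse.

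Calls came in similar shares on the X chromosome and on the arms of chromosomes 2 and 3. On the X chromosome 9.28% of 1831 tested genes were higher and 9.61% lower, and on the arms of chromosomes 2 and 3 the shares lay between 9.63% and 10.4% higher and between 10.6% and 11.9% lower. On chromosome 4, 6 of 85 genes were higher (7.06%) and 1 was lower (1.18%). Of 22 tested genes of the mitochondrion 10 were higher (45.5%) and 1 was lower, and of 4 tested genes on the Y chromosome 0 were higher and 0 lower. By class of gene, 61 of 263 tested long noncoding RNAs fell and 30 rose, and 12 of 44 pseudogenes fell and 4 rose, against 1151 lower and 1086 higher of 10979 protein-coding genes.

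The genotype effect in whole flies was set against that in adult muscle, for 9465 genes above the filter in both tissues. The difference of the 2 effects, whole fly minus muscle, passed for 552 genes (5.83%) by the interaction term in limma, of which 401 were positive and 151 negative. The fit gave each gene 1 spread for both tissues, although the muscle libraries were more variable. Whether 1 spread holds for both tissues was not tested. Muscle alone gave 2 calls among 9731 matched genes (0.0206%). Of the 1906 whole-fly calls in this fit, 401 passed the interaction test. Among whole-fly calls, 323 of 942 higher genes had a positive muscle value, and 444 of 964 lower genes had a negative one. Over all 9465 genes the median muscle value was 0.004. The count depended on each library. The fit made 35 calls without whole-fly mutant replicate 1, 223 without mutant replicate 2, and 11 and 17 without whole-fly wildtype replicate 1 or 2. It made 1324 and 1723 calls without muscle mutant replicate 1 or 2, and 151 and 298 without muscle wildtype replicate 1 or 2.

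Several genes had values of opposite sign in the 2 tissues. Muscle libraries also held RNA that marks other tissues, in uneven amounts. The seminal fluid gene Spn77Bb had 37.2 and 0.0472 FPKM in mutant muscle, and the eggshell gene Vm32E had 62.9 and 0.293 FPKM in wildtype muscle. The part of such RNA in the muscle values was not tested. LysD, CG17571, CG31313 and BomBc3 did not pass in muscle alone. LysD, which was higher in mutant whole flies as given above, had 161 and 68.9 FPKM in the mutant muscle libraries, against 3624 and 2738 FPKM in the wildtype muscle libraries. The difference between the effects was 10.69 (log2, limma adjusted p = 0.00384). CG17571 had 78.3 and 74.6 FPKM in the mutants, against 312 and 325 FPKM in the wildtypes in whole flies. In muscle it had 17.5 and 21.3 FPKM in the mutants, against 4.08 and 3.92 FPKM in the wildtypes. CG7916 did not pass in whole flies, with 371 and 295 FPKM in the mutants, against 439 and 434 FPKM in the wildtypes, but had 20.8 and 19.6 FPKM in the mutant muscle libraries, against 0.608 and 0.474 FPKM in the wildtype ones. CG31313 had the opposite order, with 114 and 108 FPKM in the mutants, against 40.2 and 36.1 FPKM in the wildtypes in whole flies and with 76.4 and 74.2 FPKM in mutant muscle, against 132 and 122 FPKM in wildtype muscle. BomBc3, the peptide that rose in whole flies, had 15.4 and 21.1 FPKM in mutant muscle, against 50.3 and 61.4 FPKM in wildtype muscle.

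For some muscle genes the whole-fly effect exceeded the effect in muscle. Act79B had a difference of 1.86 in whole flies and 0.51 in muscle, and the difference of the effects passed (limma adjusted p = 0.0295). Mlc2 had 1.53 in whole flies and 0.12 in muscle (limma adjusted p = 0.0359). The median over the 27 muscle genes was 1.03 in whole flies and 0.24 in muscle. The trypsin gene gammaTry fell in whole flies and had 2.13 and 2.43 FPKM in mutant muscle, against 10.9 and 9.73 FPKM in wildtype muscle, and the difference of the effects was -3.50 (limma adjusted p = 0.00138). The 2 tables were scaled separately, and levels were not compared between them.

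**Figure D5:**
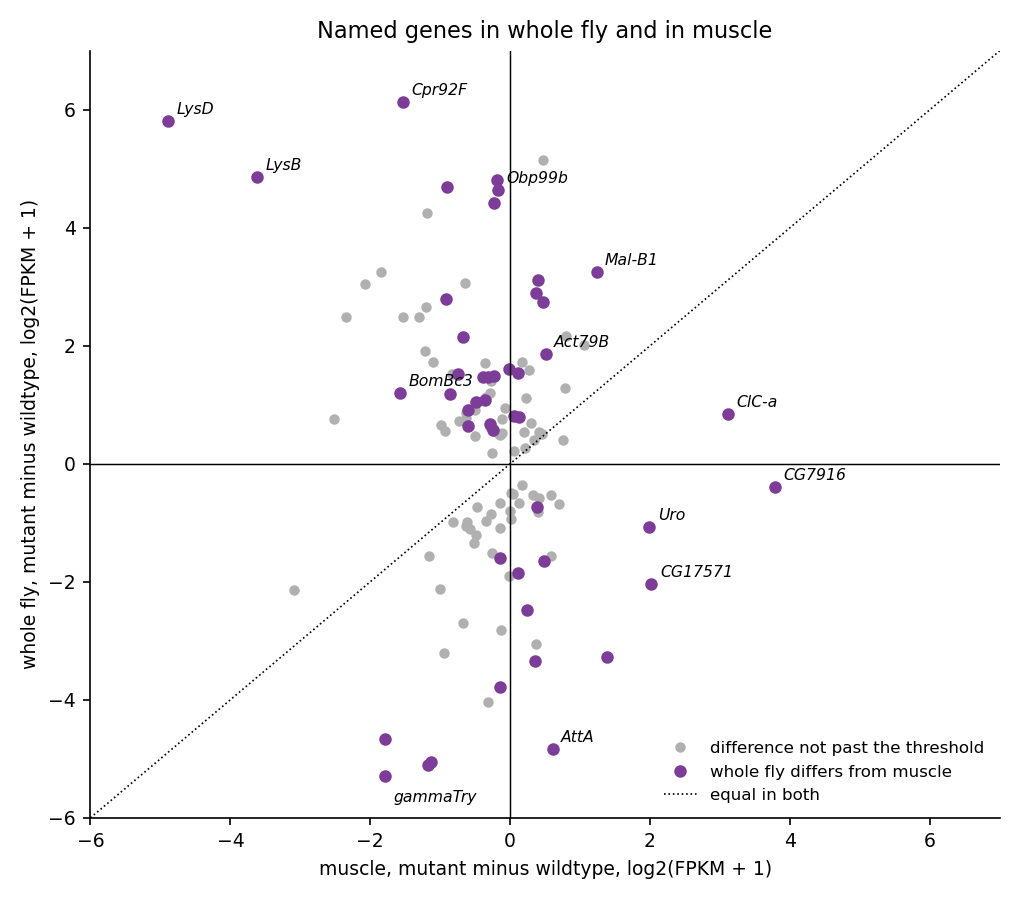
Difference between mutant and wildtype in whole flies (y axis) against that in muscle (x axis), both on the log2(FPKM + 1) scale, for named genes above the filter in both tissues. Purple points passed the test of the difference between the effects, and the dotted line marks equal effects. LysD and LysB lie at the upper left and CG7916, CG17571 and Uro at the right, with opposite signs in the 2 tissues.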

How the data were processed

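The authors deposited the whole-fly values as 1 table of FPKM, with NCBI gene identifiers, gene lengths and coordinates on fly genome release 6, 1-based as deposited. Aligner, counter and strand setting are not given in the sources used. Per the labels' protocols, mRNA libraries were built from 1.3 µg of total RNA. A symbol was found in the reference tables for 17863 of 17898 entries. The whole-fly columns name genotype and repeat only, and the muscle samples have a table of their own. FPKM times gene length came out as a whole number of reads, within 0.1 reads, for 100% of values.

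The test was limma 3.58.1 in R 4.3.3 on log2(FPKM + 1), for genes that reached 1 FPKM in 2 or more libraries, with a mean-variance trend and Benjamini-Hochberg adjustment over 11419 genes. Differences are mutant minus wildtype on that scale, where the added 1 shrinks the change of genes with little RNA. The comparison with muscle used the interaction term of a fit over all 8 libraries, with 1 spread per gene for both tissues. Calculations were tested on simulated data. Alternatives were a pseudocount of 0.1, no filter, a minimum FPKM of 5, quantile scaling, limma-voom on recovered reads, a spread shared with muscle, each library left out in turn (the muscle ones added after seeing the data), and replicate blocks.

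The members and the 44 gene lists were chosen with earlier results of these data known, and lists are described by counts and medians without a test of the list. Genes named are the 12 largest rises and falls among non-overlapping calls, up to 3 passing members per list and direction, 2 abundant members of lists without a call, and the 5 smallest interaction p-values. Further list members were named after their values were seen.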

Additional observations from a re-analysis of the deposited data

Results flagged for a closer look

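The difference between the genotype effects in whole flies and in muscle passed the interaction test in limma for 552 genes, and among the genes chosen for naming for those given here. Each value is the whole-fly difference minus the muscle difference between mutant and wildtype, on the log2(FPKM + 1) scale, so a positive value means a larger rise or a smaller fall in whole flies. Among lysozymes and cuticle genes the values were 10.69 for LysD, 8.48 for LysB, 7.67 for Cpr92F, 2.04 for Ccp84Aa, 2.52 for Cht5 and 1.78 for ple. In muscle Cpr92F had 11.5 and 0.56 FPKM in the mutants, against 9.69 and 14.4 FPKM in the wildtypes, so the mutant muscle libraries differed widely. Fat body and female genes gave 4.99 for Fbp1, 4.66 for fit and 0.96 for Glys. The odorant carrier Obp99b had 4.81, dyw 5.59, the esterase Est-6 1.24, the carotenoid receptor ninaD 2.28 and the pteridine enzyme Pu 1.54.

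Digestive genes had values on both sides. The trypsin cluster gave -3.50 for gammaTry, -2.88 for deltaTry, -3.93 for CG30025 and -3.92 for CG30031. Ser6 had -2.71, whereas Jon74E had 2.82, Mal-B1 2.02 and Mal-A5 0.82. Among immune and stress genes the values were -5.45 for AttA, -2.13 for TotX and 2.77 for BomBc3. In detoxification they were 3.72 for Cyp6a8, -1.95 for Cyp6a17 and -1.45 for GstE5. Tubule genes gave 2.72 for MtnC, 1.73 for Oatp58Db, -2.28 for ClC-a, -3.07 for Uro and -1.11 for Irk3.

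Muscle and energy genes were all positive in this set. They had been named for the largest changes of their lists in whole flies, all of them rises, so their shared sign is no separate result. Act79B had 1.36, fln 1.61, Mlc2 1.42, Pglym78 0.75, Pfk 0.67, UQCR-11 1.44 and ND-30 1.52. The spliceosome gene LSm7 had 1.87. Among other genes the values were -3.64 for CG32641, -3.70 for Srg3, -4.67 for CG43055, -4.06 for CG17571, -4.18 for CG7916 and 2.27 for CG31313. In whole flies ClC-a, a chloride channel gene, had 19.7 and 22.8 FPKM in the mutants, against 11.1 and 11.6 FPKM in the wildtypes. In muscle it had 120.3 and 214 FPKM in the mutants, against 17.6 and 17.5 FPKM in the wildtypes.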

How the results depend on the processing

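Precision is limited by 2 libraries per genotype. No named gene that passed turned its direction under the alternatives run. With the spread shared with muscle, over fewer genes, 546 genes were called, 330 higher and 216 lower, and the higher calls were 17 in flight muscle, 25 in the nuclear respiratory chain, 3 in adult cuticle and 0 in eggshell, with lower calls of 7 trypsin and Jonah proteases, 5 antimicrobial peptides and 0 testis genes. Under limma-voom 2008 genes were lower, with 6 lower Malpighian tubule, 22 lower P450, 9 lower phototransduction and 4 lower splicing regulator genes. With 1 library left out, calls ranged from 1265 to 3000, higher from 610 to 1594, lower from 644 to 1406, and interaction calls from 11 to 1723, the muscle libraries being left out as an alternative chosen after seeing the data. Other settings gave 427 to 714 interaction calls and, without a filter, 1779 whole-fly calls. Of the named genes, 21 lost their call without a filter, 57 with the shared spread, 17 and 7 without mutant replicate 1 or 2, and 32 and 36 without wildtype replicate 1 or 2. The cause of these losses was not tested.

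Whether replicate numbers pair the libraries is not known. The deviations of mutant 1 and wildtype 1 from their group means correlated at -0.149 over 11419 genes. With 2 libraries a group, and genes that are not independent, this single correlation cannot decide it. With the replicate number as a block 2807 genes were called, 1371 higher and 1436 lower. With crossed pairs, chosen after seeing the data, 3029 were called, 1549 higher and 1480 lower. On the list of the mitochondrial genome 13 genes were higher with the block and 5 with crossed pairs, and in dosage compensation 1 was higher and 1 lower with either.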
